A study of Mus musculus with 42 samples.

Results

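Hmgcs1, Idi1, Fdps, Fdft1, Sqle, Lss and Dhcr7 encode enzymes that build cholesterol. They were selected by their symbols in the deposited expression table, where each of these 7 genes has 1 row per tissue among 26653 genes, and their levels were compared between wild-type and *Tug1*-/- mice in liver, cultured embryonic fibroblasts (MEFs), testes, eyes, prostate, spleen and heart. *Tug1* is a long noncoding RNA gene. Both genotypes belong to the Tug1_tm1.1Vlcg strain on a C57BL/6J background from which the neomycin cassette is absent. Wild types carry 2 normal *Tug1* alleles, whereas in the knockouts *lacZ* takes the place of the gene at each allele, in every cell of the body. The study's methods describe removal of the gene body with the promoter kept in place. All samples were labelled male. The tissues came from mice whose age the labels do not give, and the MEFs, primary cultures from littermate embryos, were used at passage 2. The 42 samples comprised 22 wild-type and 20 knockout samples, with 4 wild-type and 3 knockout samples of testes, 3 and 2 of prostate, and 3 and 3 of each of the others.

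Cholesterol is made from acetyl-CoA in a long chain of steps. Hmgcs1 makes HMG-CoA, from which mevalonate is formed. Idi1 and Fdps act on the isoprenoid units that follow, Fdft1 joins farnesyl units into squalene, Sqle oxidises squalene, Lss closes it into the sterol ring as lanosterol, and Dhcr7 carries out a late reduction of the ring. Sqle is a known control point of the chain. When sterols in the endoplasmic reticulum run low, Scap escorts the transcription factor precursor SREBP-2, the product of Srebf2, to the Golgi, where it is cut free, and it then switches on the genes of the chain by binding sterol regulatory elements, usually beside NF-Y and Sp1 sites. The liver is a main site of this synthesis, and cultured fibroblasts are a classical system for its control.

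The sequences in front of the annotated starts are shown because those elements were first defined in such regions. RefSeq promoter windows (GRCm38.p6, 250 bases before and 50 from the start) were found for 4 of the 7 genes, Hmgcs1, Idi1, Lss and Dhcr7, with 6 windows in all. Of these, 3 are printed below, 5′ to 3′ along the gene and up to the start. Hmgcs1 is shown for its sterol regulatory element, Lss for a single NF-Y motif and the first Dhcr7 window for having neither. The Idi1 window and the other Dhcr7 windows overlap untranslated sequence annotated in GENCODE before the RefSeq start and are described in words. The printed Lss and Dhcr7 stretches run up to the RefSeq start and so past the GENCODE gene starts, 76531588 and 143823145. Capitals mark a sterol regulatory element (CACNCCAC) or an NF-Y motif (CCAAT) read on either strand, so that ATTGG is that motif on the other strand.
Hmgcs1, chr13:119690101-119690350, plus strand: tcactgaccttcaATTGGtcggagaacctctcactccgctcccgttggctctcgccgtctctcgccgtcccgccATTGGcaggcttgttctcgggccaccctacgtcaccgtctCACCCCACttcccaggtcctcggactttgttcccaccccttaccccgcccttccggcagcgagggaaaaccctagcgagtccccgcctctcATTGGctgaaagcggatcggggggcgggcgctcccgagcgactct
Lss, chr10:76531355-76531604, plus strand: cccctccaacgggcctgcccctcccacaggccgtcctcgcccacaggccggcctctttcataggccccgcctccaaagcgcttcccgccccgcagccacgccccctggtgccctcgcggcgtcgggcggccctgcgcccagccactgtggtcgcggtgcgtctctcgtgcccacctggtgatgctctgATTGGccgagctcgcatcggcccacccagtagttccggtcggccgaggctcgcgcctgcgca
Dhcr7, first of its 3 annotated starts, chr7:143822917-143823166, plus strand: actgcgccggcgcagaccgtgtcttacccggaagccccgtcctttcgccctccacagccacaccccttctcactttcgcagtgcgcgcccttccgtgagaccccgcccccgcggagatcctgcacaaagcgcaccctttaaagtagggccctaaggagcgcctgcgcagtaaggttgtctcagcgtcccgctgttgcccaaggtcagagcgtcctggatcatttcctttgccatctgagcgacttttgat

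Hmgcs1 held the longer form of the sterol regulatory element, TCACNCCAC, at position -137 from its start, and it was the 1 gene of these 4 with such a match. That form, which contains the shorter CACNCCAC, was present in 1.24% of all 32851 promoter windows, and the shorter in 6.24%. The NF-Y motif was matched in 4 of the 6 windows, against 37.4% of all windows, and in at least 1 window of each of the 4 genes. In the Hmgcs1 window the matches lay at -237, -176, -45 and 10. In the window of Idi1 it lay at -45 and -14, in that of Lss at -62, and in the third window of Dhcr7 at -85 and -49, while the first window of Dhcr7, printed above, has none. The Sp1 motif GGGCGG was found in 5 of the 6 windows, against 35.7% of all windows, and likewise in at least 1 window of each of the 4 genes. The E-box CACGTG was found in the second Dhcr7 window alone, against 7.15%. Among 13 other enzymes of the chain analysed here, 12 had a window. Of these, 11 held the NF-Y motif, 11 held the Sp1 motif, Acat2 alone held the shorter sterol regulatory element and none held the longer. Motifs were searched on both strands, and a match describes the letters only.

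The 7 genes lie apart on 6 chromosomes in GENCODE vM21 (GRCm38). Hmgcs1 (ENSMUSG00000093930.1) and Idi1 (ENSMUSG00000058258.8) are on the plus strand of chromosome 13 from 119690379 to 119708260 and from 8885501 to 8892451. Fdps (ENSMUSG00000059743.8) and Fdft1 (ENSMUSG00000021273.9) are transcribed from the minus strand, Fdps on chromosome 3 from 89093588 to 89101959 and Fdft1 on chromosome 14 from 63145150 to 63179578. Sqle (ENSMUSG00000022351.8) is on the plus strand of chromosome 15 from 59315077 to 59331192, Lss (ENSMUSG00000033105.6) on the plus strand of chromosome 10 from 76531588 to 76557138, and Dhcr7 (ENSMUSG00000058454.8) on the plus strand of chromosome 7 from 143823145 to 143848410. An exon of Fdft1 overlaps the cathepsin gene Ctsb on the opposite strand, and an exon of Lss overlaps the antisense gene 4930483K19Rik. Exons of Hmgcs1 and Idi1 overlap Gm48342 and Gm48574 on the opposite strand, and an exon of Fdps overlaps the coding gene Gm43738 on its own strand, for none of which a row was found by symbol. These overlaps are with the whole span of the partner gene, and whether its exons cover the stretch was not checked. The library kit does not mark strand, so reads from stretches that are exonic in both partners cannot be assigned between them. The paralog of Idi1, Idi2, was listed below 0.03 FPKM in every tissue and genotype.

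The deposited table gives 1 value per genotype and tissue, in which the authors had already combined the replicates, in FPKM (fragments per kilobase of transcript per 1000000 mapped fragments, a level scaled by gene length, which its layout implies and its header does not name). No value per sample and no count was analysed here, so depth and the spread between mice are unknown, and no difference below could be tested against replicate error. Each difference is log2 of the knockout over the wild-type value, each plus 0.1 FPKM, and understates low genes. As a yardstick, the same quantity was computed for all genes with a completed estimate and a mean of at least 1 FPKM, between 11584 genes in MEFs and 15136 in testes, and a gene was counted as past the limit at 1.5-fold. *Tug1* was listed between 11.2 and 27.7 FPKM in the 7 wild-type tissues and between 0.00753 and 0.402 FPKM in the knockouts. The markers of each labelled tissue were present at 1 FPKM or more in at least 1 genotype of that tissue, except that 2 liver markers, Alb and Serpina1a, had no completed estimate and a listed value of 0 in either genotype. The tissues are bulk samples, in which fewer cells of a type and less RNA per cell cannot be told apart.

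Liver was the tissue with the largest differences. All 7 genes were higher in the knockout liver, against 45.5% of all genes tested there, and their median log2 difference was 0.39, against -0.02 over all genes tested. The summed level of the 7 genes was 703 FPKM in wild-type and 973 FPKM in knockout liver, 1.38 times the wild-type value. Sqle and Idi1 were past 1.5-fold, 2 of 7 genes, where 2.50% of all genes were past it upward and 2.22% downward.

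Sqle, the squalene epoxidase, was listed at 20.9 FPKM in wild-type and 43.0 FPKM in knockout liver, a log2 difference of 1.03. Of all genes tested in liver, 99.3% had a lower difference. Idi1, the isomerase that balances the isoprenoid building blocks, was at 124 and 193 FPKM, a log2 difference of 0.63. Both genes were thus clear of the bulk of the liver genes, and in wild-type level Idi1 lay above 90.8% and Sqle above 63.8% of the genes tested in liver.

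The other 5 genes were higher by less than 1.5-fold. Fdps, the farnesyl diphosphate synthase, was at 277 FPKM in wild-type and 388 FPKM in knockout liver, a log2 difference of 0.49. Dhcr7 was at 54.1 and 71.0 FPKM and Lss at 26.9 and 35.0 FPKM, with log2 differences of 0.39 and 0.37. The remaining pair showed the smallest differences in liver. Fdft1, the squalene synthase, was at 57.8 and 73.0 FPKM, a log2 difference of 0.34, while its overlapping neighbour Ctsb was at 203 and 217 FPKM, a log2 difference of 0.09. Hmgcs1 was at 142 and 170 FPKM, a log2 difference of 0.26, higher than that of 89.1% of the genes tested. The size of the difference did not follow the order of the steps, since it was larger for Idi1 (0.63) than for the next genes Fdps and Fdft1 (0.49 and 0.34), and larger for Sqle (1.03) than for Lss and Dhcr7 after it (0.37 and 0.39).

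**Figure D1:**
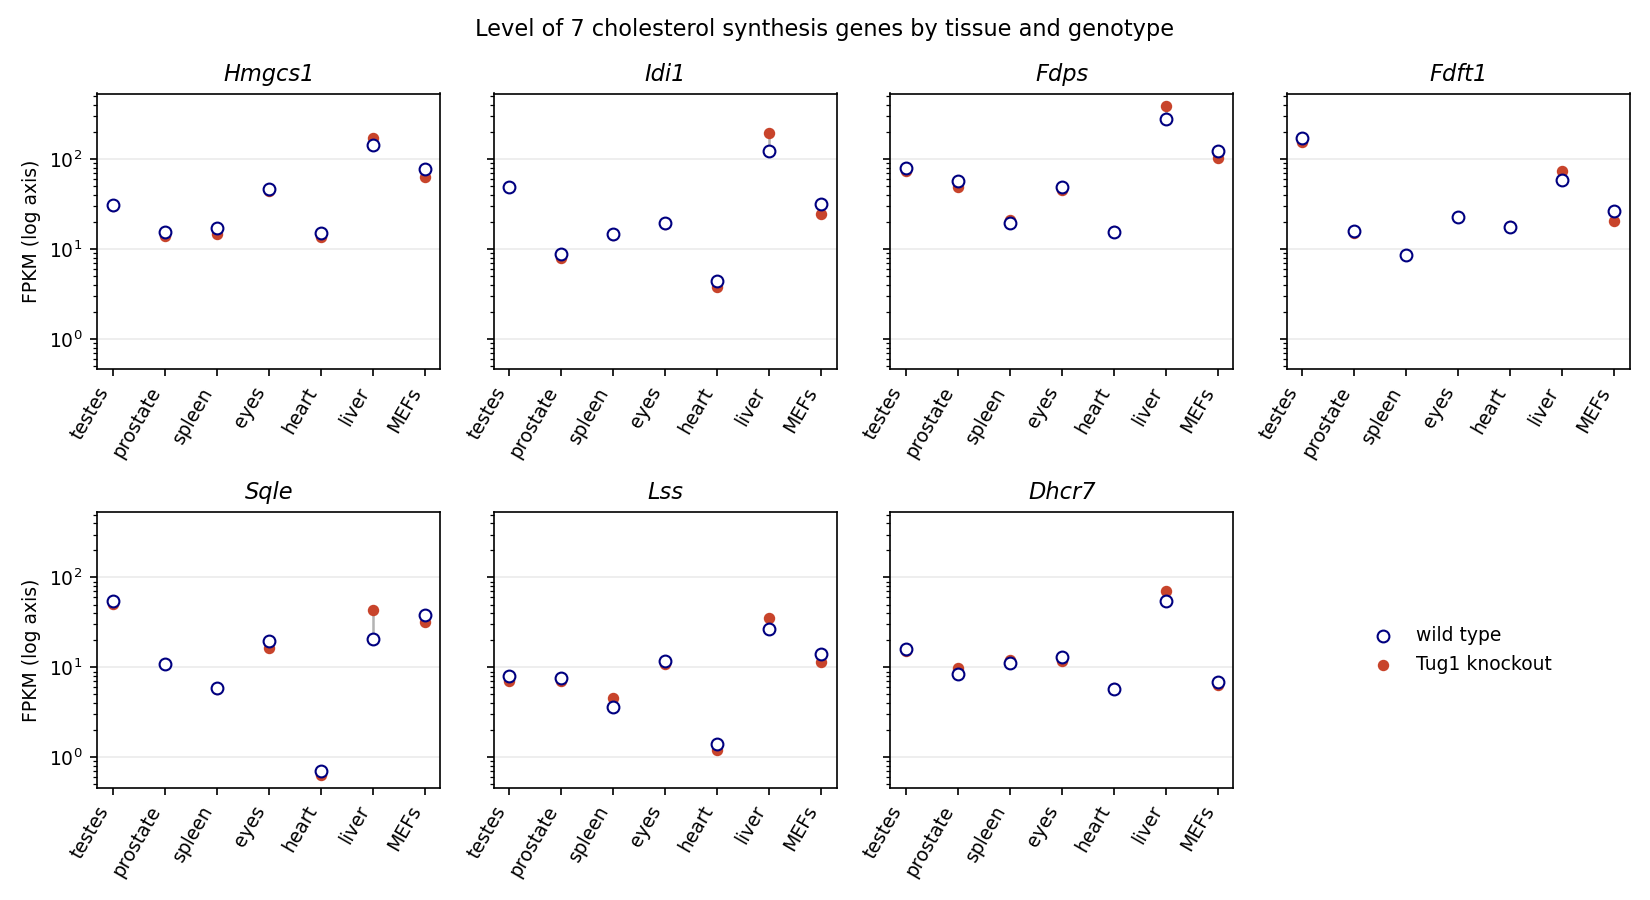
Level of each of the 7 genes (FPKM, log axis) by tissue, with 1 open point for the wild-type value and 1 filled point for the knockout value, both the authors' values over replicates, joined by a line. In liver the filled point lies above the open one for all 7 genes, most widely for Sqle (20.9 and 43.0 FPKM), in MEFs it lies below for all 7, and elsewhere the log2 difference lies between -0.25 and 0.30, the open point often hiding the filled one.

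The 13 other enzymes analysed here lay on the same side in liver. All 13 were higher in the knockout, with a median log2 difference of 0.28 and a range of 0.05 to 0.58, and none was past 1.5-fold. When each genotype was scaled to its total 3 were past it, 2 when scaled over completed estimates and 1 after centring. The share of all genes past it under those settings is not given here. Sqle thus had the largest log2 difference of these 20 genes. Mvd, which makes isopentenyl diphosphate, was just inside the limit at 8.62 and 12.9 FPKM (log2 difference 0.58), followed by the lanosterol demethylase Cyp51 at 68.1 and 99.3 FPKM (0.54) and the phosphomevalonate kinase Pmvk at 64.1 and 88.3 FPKM (0.46). The smallest differences were those of 3 enzymes that act on the ring, Ebp at 217 and 225 FPKM (0.05), Tm7sf2 at 156 and 171 FPKM (0.13) and Sc5d at 510 and 558 FPKM (0.13). Over the 20 genes, the liver difference and the log2 wild-type level in liver had a Pearson r of -0.23, a description across genes that share the same libraries and are not replicates.

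In MEFs the 7 genes lay on the opposite side. All 7 were lower in the knockout cells, against a background in which 49.8% of the genes tested were higher, and the median log2 difference was -0.27, against 0.00 over all genes tested. None was past 1.5-fold, where 2.20% of all genes were past it downward and 0.975% upward. The summed level was 317 FPKM in wild-type and 260 FPKM in knockout MEFs, 0.82 times the wild-type value.

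The largest MEF difference was that of Idi1, at 31.8 FPKM in wild-type and 24.3 FPKM in knockout cells, a log2 difference of -0.39. Fdft1 was at 26.3 and 20.3 FPKM (-0.37) and Hmgcs1 at 77.5 and 62.3 FPKM (-0.31). These 3 genes had lower differences than all but 5.47% to 7.85% of the genes tested. Lss followed at 14.1 and 11.6 FPKM (-0.27), Fdps at 122 and 103 FPKM (-0.25) and Sqle at 38.1 and 32.2 FPKM (-0.24). Dhcr7 was the nearest to even, at 6.92 and 6.42 FPKM (-0.11). Ctsb, the neighbour of Fdft1, was also lower in knockout MEFs, at 164 and 136 FPKM (-0.27), and the part of the shared stretch in the value of Fdft1 was not tested.

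Of the 13 other enzymes, 12 were lower in knockout MEFs, with a median log2 difference of -0.26. Nsdhl at 14.6 and 10.9 FPKM (-0.42), Msmo1 at 61.4 and 46.3 FPKM (-0.41) and Cyp51 at 48.7 and 36.9 FPKM (-0.40), all of which take part in removing methyl groups from the ring, had the lowest values. Lbr, a sterol reductase that is also a receptor of the nuclear lamina, was the 1 exception at 9.40 and 10.4 FPKM (0.14). The genes ranked differently in the 2 comparisons. Over the 20 genes the liver and MEF differences had a Pearson r of -0.24 and a Spearman rho of -0.21, and Sqle, first in liver, was at -0.24 in MEFs, although Idi1 stood near the end of the range in both.

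**Figure D2:**
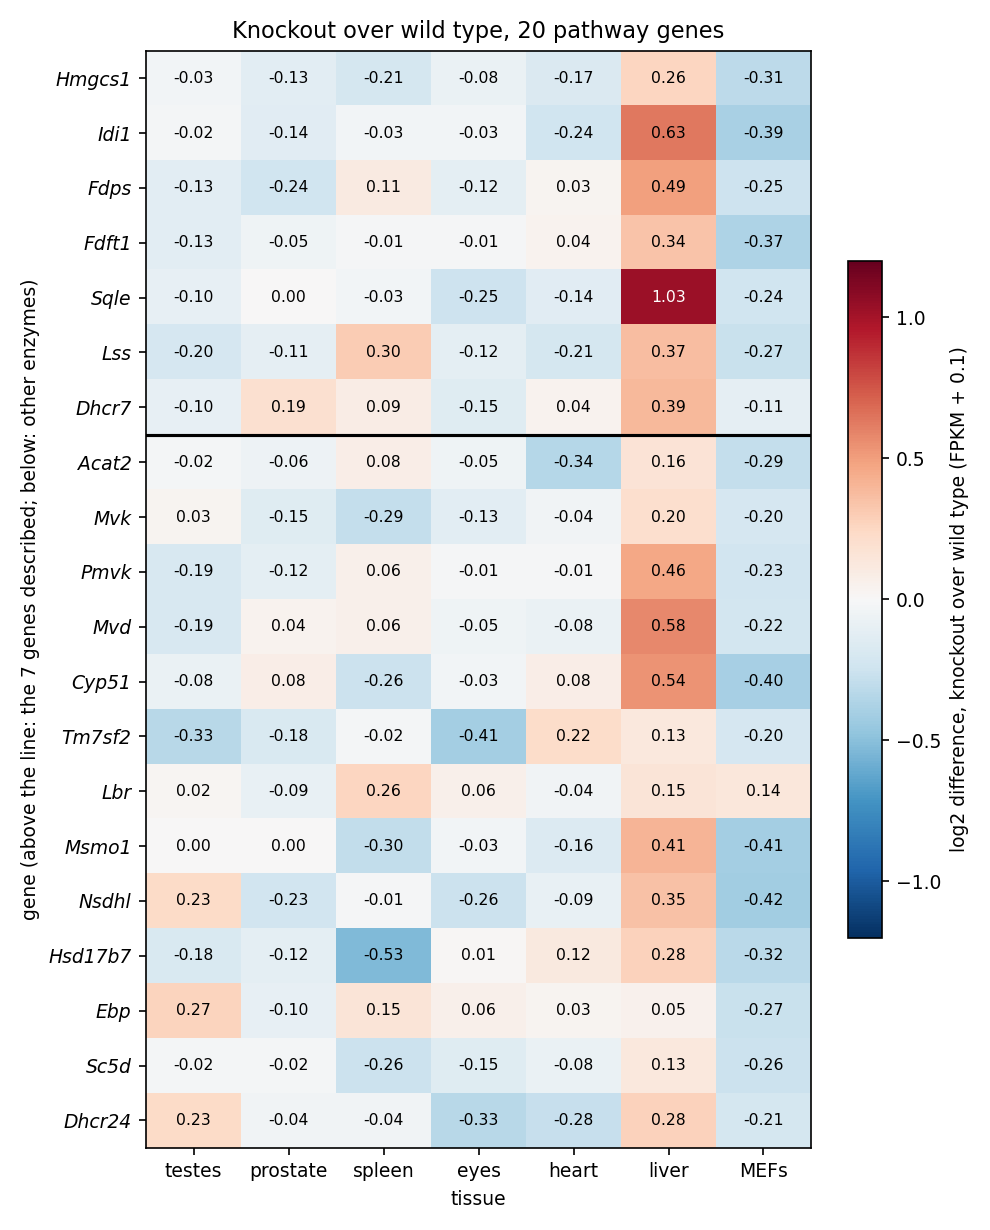
Log2 difference of knockout over wild type (FPKM + 0.1, printed in each cell, red higher and blue lower in the knockout) for the 7 genes above the line and the 13 other enzymes below it, in 7 tissues. The liver column is red in all 20 rows, from 0.05 for Ebp to 1.03 for Sqle, and the MEF column is blue in all rows but that of Lbr.

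**Figure D3:**
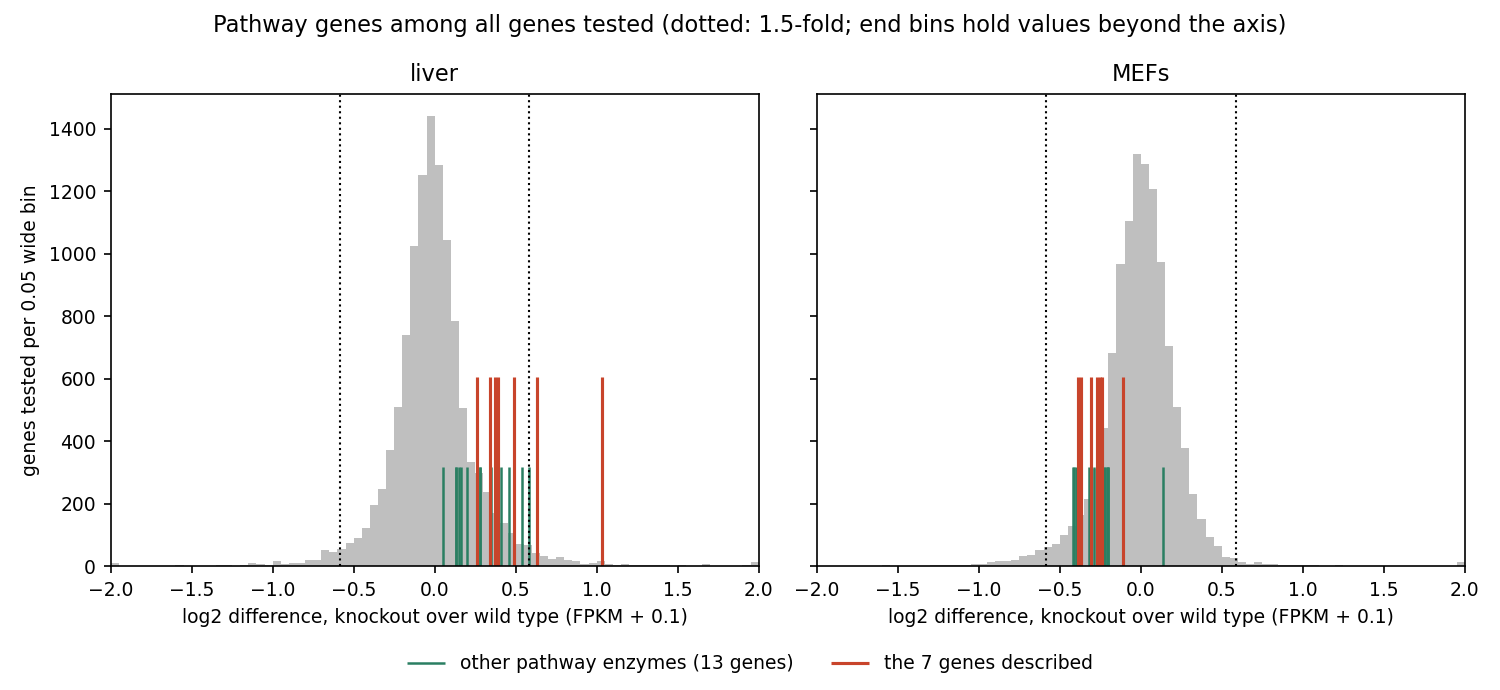
Histogram of the log2 difference of all genes tested in liver (11694 genes) and MEFs (11584 genes), in counts per bin, with a tall red line at each of the 7 genes and a short green line at each of the 13 other enzymes (line heights carry no value). In liver the 7 lines lie between 0.26 and 1.03, to the right of the peak, and in MEFs between -0.39 and -0.11, to its left.

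In the other 5 tissues none of the 7 genes was past 1.5-fold in either direction. The share of all genes tested past the limit was 1.14% upward and 0.747% downward in testes and 0.836% and 1.40% in heart. Eyes had 2.62% and 0.854%, prostate 2.38% and 0.675%, and spleen 4.89% and 1.08%. Differences among the 7 genes in these tissues ran from -0.25 to 0.30 on the log2 scale.

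In testes all 7 genes were lower in the knockout, from Lss at 8.03 FPKM in wild-type and 6.99 FPKM in knockout (-0.20) to Idi1 at 48.9 and 48.2 FPKM (-0.02). The gene antisense to Lss, 4930483K19Rik, was listed in testes at 7.16 and 6.71 FPKM, close to Lss itself, and its part in the value of Lss was not tested. The median of the 7 was -0.10, that of all genes tested was -0.06, and 36.4% of the genes tested were higher. When each genotype was scaled to its total, 2 of the 7 genes were higher instead of none, so the direction in testes depends on the scaling. The Leydig cell markers, which mark the steroid-making cells of the testis, were higher in the knockout for 5 of 5 genes, with a summed level of 949 FPKM in wild-type and 1366 FPKM in knockout. Sertoli cell markers were higher for 4 of 4 genes, at 43.3 and 52.5 FPKM, and the sperm cell markers lower for 5 of 5, at 40373 and 34592 FPKM. Their part in these values was not tested.

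In eyes the 7 genes were again lower in the knockout, or 6 of 7 when the values were centred on the median of all genes, with a median of -0.12, against -0.02 over all genes tested and 43.5% of genes higher. Sqle had the lowest value, at 19.8 and 16.6 FPKM (-0.25), and Fdft1 was nearly level at 22.7 and 22.6 FPKM (-0.01). Adipocyte markers were higher in the knockout eyes for 5 of 5 genes, with a summed level of 37.3 FPKM in wild-type and 176 FPKM in knockout, and skeletal muscle markers for 5 of 5, at 1372 and 2505 FPKM. The part of these other tissues in the values was not tested.

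Spleen, prostate and heart gave mixed directions. In spleen 3 of the 7 genes were higher, where 45.5% of all genes were, and Lss had the highest value outside liver, at 3.65 FPKM in wild-type and 4.52 FPKM in knockout (0.30), while Hmgcs1 was at 16.9 and 14.6 FPKM (-0.21). In prostate 2 of 7 were higher, where 39.1% of all genes were, with Dhcr7 at 8.55 and 9.75 FPKM (0.19) and Fdps at 57.0 and 48.2 FPKM (-0.24) at the ends of the range. In heart 3 of 7 were higher, where 58.6% of all genes were, and Idi1 had the lowest value at 4.42 and 3.73 FPKM (-0.24). When each genotype was scaled to its total, 0 of 7 were higher in heart, a scaling that moved the log2 differences there by -0.08. Totals over completed estimates alone moved them by -0.02. Sqle in heart, at 0.705 and 0.633 FPKM, was the 1 value of the 49 that lay under the minimum mean of 1 FPKM. It is counted here with the others. In spleen, dividing cell markers were higher in the knockout for 4 of 4 genes (summed 105 and 198 FPKM) and erythroid markers for 3 of the 3 found (358 and 761 FPKM). In prostate, adipocyte markers were higher for 5 of 5 (37.1 and 168 FPKM) and seminal vesicle markers for 3 of 4 (8746 and 16555 FPKM). In heart, adipocyte markers were lower in the knockout for 5 of 5 genes (136 and 72.0 FPKM) and the B and T cell markers for 5 of 5 (31.3 and 14.3 FPKM). The part of these cells in the values was not tested.

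Levels in wild-type tissue spanned a wide range. Fdps in liver, at 277 FPKM, was the highest wild-type value of the 7 genes in any tissue, and Sqle in heart, at 0.705 FPKM, the lowest. Heart had the lowest FPKM of 6 of the 7 genes, and for Fdft1 the lowest was spleen at 8.58 FPKM. Between its highest and lowest tissue, Sqle differed 77.2-fold, Idi1 28.2-fold, Fdft1 19.9-fold, Lss 19.0-fold, Fdps 18.0-fold, Dhcr7 9.41-fold and Hmgcs1 9.40-fold.

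Testes stood apart through Fdft1. It was listed there at 171 FPKM, against 57.8 FPKM in liver, the next tissue, and made up 41.8% of the summed level of the 7 genes in wild-type testes, against 8.22% in liver and 8.30% in MEFs. Sqle was also highest in testes, at 54.5 FPKM, followed by MEFs at 38.1, liver at 20.9 and eyes at 19.8 FPKM. In knockout tissue, liver (43.0 FPKM) lay above MEFs (32.2 FPKM) for Sqle, whereas in wild-type tissue it lay below.

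The other 5 genes had their highest FPKM in liver. Hmgcs1 there was at 142 FPKM, followed by MEFs (77.5), eyes (46.7) and testes (30.4). Idi1 was at 124 FPKM in liver, followed by testes (48.9), MEFs (31.8) and eyes (19.5). The table's total FPKM differed between tissues, being lowest in the eyes of wild types (378014) and highest in their liver (1124495). When values were expressed per 1000000 of the total over completed estimates, the highest wild-type tissue became MEFs for Hmgcs1 (155, against 136 in liver) and Sqle (76.0, against 74.8 in testes), and eyes for Lss (31.7, against 28.0 in MEFs and 25.9 in liver). Liver kept the first place for Idi1 (120), Fdps (267) and Dhcr7 (52.1), and testes for Fdft1 (235). The liver total over completed estimates leaves out Alb, Serpina1a and mitochondrial genes such as mt-Atp8, which had no completed estimate there. The totals therefore do not cover the same genes in each tissue, which limits the orders per 1000000. No spread between mice is known, so which neighbours in these orders differ cannot be stated.

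The widest gap between genotypes in the share of 1 gene in the summed level was that of Fdps in prostate, 46.0% in wild-type and 42.6% in knockout. In liver the share of Sqle was 2.98% in wild-type and 4.42% in knockout, and that of Hmgcs1 20.2% and 17.5%. Fdps was the largest share in wild-type liver (39.4%), MEFs (38.6%), prostate (46.0%), eyes (26.9%) and spleen (24.3%), and Fdft1 in testes (41.8%) and heart (29.3%).

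**Figure D4:**
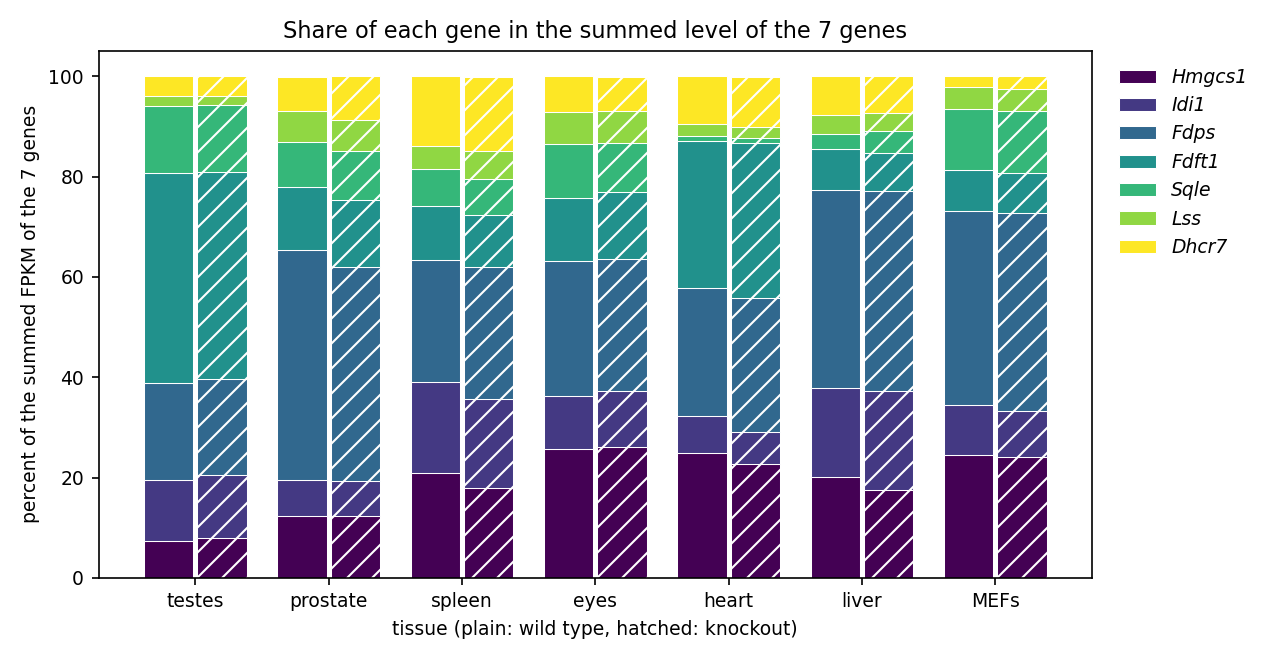
Share of each of the 7 genes in their summed FPKM (percent, bars from 0) in wild type (plain) and knockout (hatched) of each tissue. Fdft1 takes 41.8% of the wild-type testes bar and Fdps 39.4% of the wild-type liver bar, and the widest gap between the genotypes is that of Fdps in prostate (46.0% and 42.6%).

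The genes that sense sterols and carry the signal to the nucleus lay around 0 as a list. In liver 4 of 7 were higher in the knockout, with a median log2 difference of 0.04. Srebf2, which encodes the regulator of the chain, was at 15.5 and 17.1 FPKM (0.15), Scap at 56.9 and 63.4 FPKM (0.16) and Insig1, which holds the complex back, at 267 and 274 FPKM (0.04). Srebf1, whose product SREBP-1 drives fatty acid genes in liver, was past 1.5-fold in the other direction, at 273 FPKM in wild-type and 178 FPKM in knockout (-0.62), and Insig2 was at 180 and 141 FPKM (-0.35). In MEFs the same list had a median of -0.01, with 3 of 7 genes higher and Srebf2 at 34.4 and 34.1 FPKM (-0.01). In the other 5 tissues no gene of the list was past 1.5-fold.

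Genes of cholesterol uptake, storage and export gave a median log2 difference of 0.08 in liver, with 9 of 13 genes higher. Soat1, which esterifies cholesterol, was the gene past the limit, at a low level of 0.863 and 1.40 FPKM (0.64). Mylip, an E3 ubiquitin ligase gene of sterol uptake, was at 6.63 and 8.26 FPKM (0.31), and the intracellular cholesterol carrier Npc1 at 72.5 and 62.3 FPKM (-0.22). In MEFs 3 of the 10 genes that passed the filter were higher, with a median of -0.14, and Mylip was at 5.21 and 3.88 FPKM (-0.42). The named genes of this list and of the fatty acid and clock lists were chosen after their values were seen.

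Fatty acid synthesis genes had a median of 0.14 in liver, with 7 of 9 genes higher and none past 1.5-fold, and a median of -0.02 in MEFs, with 4 of 8 higher. Outside liver and MEFs, genes of this list passed the limit in 4 tissues in which none of the 7 genes did. In heart Scd1 (80.6 and 25.3 FPKM, -1.67), Fasn (25.7 and 14.0 FPKM, -0.87) and Elovl6 (1.45 and 0.806 FPKM, -0.77) were past the limit downward. Past it upward were Thrsp (6.67 FPKM in knockout, a log2 difference of 2.08) and Elovl6 (1.02 and 1.68 FPKM, 0.67) in prostate, Thrsp (10.8 and 23.7 FPKM, 1.13) and Scd1 (25.1 and 41.9 FPKM, 0.74) in eyes, and Thrsp (0.944 and 1.81 FPKM, 0.87) in spleen. The adipocyte markers, given above for prostate, eyes and heart, were higher in the first 2 and lower in heart, and their part was not tested.

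**Figure D5:**
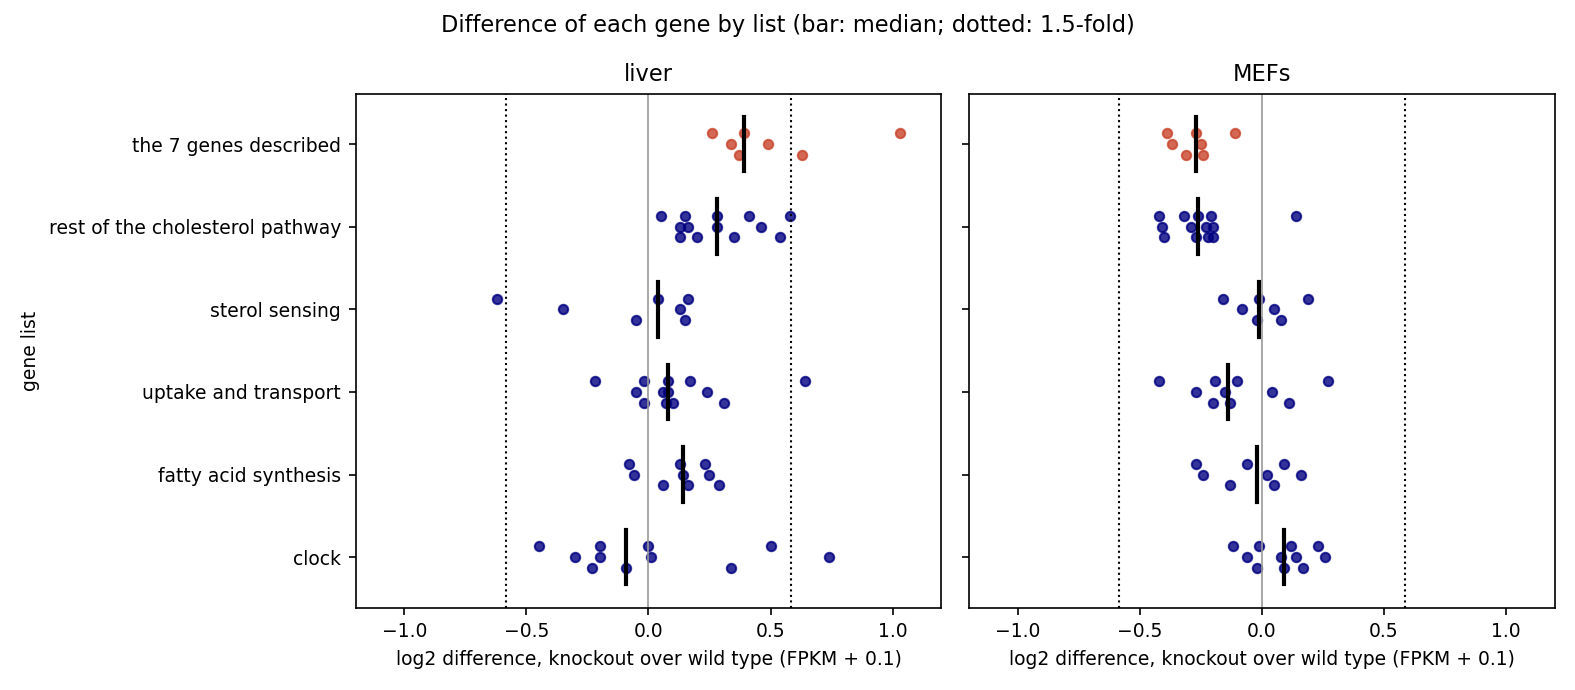
Log2 difference of knockout over wild type (FPKM + 0.1) in liver and MEFs, 1 point per gene, by list, with a bar at each list's median and dotted lines at 1.5-fold. The medians of the 7 genes (0.39 in liver, -0.27 in MEFs) and of the 13 other enzymes (0.28 and -0.26) lie on opposite sides of 0 in the 2 panels, while those of the other lists lie between -0.14 and 0.14.

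Markers of other cells and of the time of day were read beside these results. Cholesterol synthesis in liver follows the daily cycle of feeding, and the labels used here give no hour of collection. Of the 11 clock genes that passed the filter in liver, 5 were higher, with a median of -0.09. Ciart was past 1.5-fold, at 11.3 and 18.8 FPKM (0.74), Per1 was at 10.7 and 15.2 FPKM (0.50) and Nr1d1 at 68.3 and 50.1 FPKM (-0.45). In MEFs 7 of 11 clock genes were higher, with a median of 0.09 and none past the limit. Macrophage markers were higher in knockout liver for 4 of 4 genes, at a summed 42.3 and 60.7 FPKM. This was not particular to liver. They were also higher for 4 of 4 genes in testes (6.72 and 8.27 FPKM), prostate (12.5 and 17.2 FPKM), eyes (22.4 and 27.3 FPKM) and heart (45.6 and 55.7 FPKM). In spleen 3 of 4 were higher (239 and 249 FPKM), and in MEFs 1 of 4 (27.5 and 23.5 FPKM). Markers of dividing cells were higher in knockout liver for 4 of 4 genes, at 3.55 and 5.49 FPKM. Adipocyte, skeletal muscle and erythroid markers in liver summed to 2.60 and 1.66, 1.65 and 1.58, and 151 and 147 FPKM. In MEFs the dividing cell markers summed to 131 FPKM in wild-type and 146 FPKM in knockout, with 3 of 4 genes higher, and the fibroblast markers to 5239 and 5011 FPKM. The part of any of these in the values of the 7 genes was not tested.

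Genes whose pattern was most like that of the 7 were sought among 8859 others with at least 1 FPKM in every tissue, over 7 tissues. The largest Pearson r with the mean log2 difference of the 7 genes was that of Cox6b2 (0.995), followed by Tmem50b (0.977), Mvd (0.972), Kif24 (0.967) and Aph1b (0.965). The 13 other enzymes had a median r of 0.69, against -0.05 over all genes compared. This likeness leaned on liver. Without it the 5 nearest genes were Rasa1, Swt1, Pdia4, Uba3 and Serinc3, none of them among the first 5 with liver included, and the median r of the 13 enzymes was 0.34, against -0.03. In wild-type level, the nearest genes were Cyp51 (0.960), Trappc11 (0.946), the fatty acid desaturase gene Fads2 (0.945), Ccl25 (0.933) and Pja1 (0.922), and the 13 enzymes had a median r of 0.68, against 0.07 over all genes compared. These coefficients describe 7 points each, or 6 without liver.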

How the data were processed

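Polyadenylated RNA of 42 samples had been made into libraries with the TruSeq RNA kit v2, which does not mark strand. The submitters' processing notes name CASAVA 1.8.2, TopHat2, Cuffdiff and the mm10 build. The authors deposited 1 table of FPKM values with 1 value per genotype and tissue, each pooling the replicates. The header names no unit, and FPKM is read from the layout and the tools. The table also holds the authors' fold changes, test statistics, p and q values, which were not used here. The paper's methods describe another route to the authors' own calls, with DESeq2 on counts. Brain values (2 groups, 1 tissue), for which the labels used here hold no sample, were not analysed here.

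From the deposited values, log2((knockout + 0.1)/(wild type + 0.1)) was computed. Background genes had a completed estimate (the status column) and a mean of at least 1 FPKM. A gene was counted past a limit of 1.5-fold. No test was run, since no value per sample was analysed, and depth is unknown. All 7 genes had completed estimates in all 7 tissues and are described throughout, the other lists through the genes that passed the filter. Of these lists, other pathway and sterol-sensing genes past 1.5-fold or needed for a range were named by rule, further ones after their values were seen, and the 5 genes most like the 7 by Pearson r. The lists held 13 other pathway enzymes, 7 sterol-sensing, 13 uptake and transport, 10 fatty acid and 13 clock genes, and every gene was found by symbol, older symbol or Ensembl ID. A further 3 listed genes are not reported here and enter no list. The genes described, the lists and the limits were chosen with earlier results of these data known. Alternatives were pseudocounts of 1 and 0.01, scaling each genotype to its total, centring on the median of all genes tested, limits of 1.25-fold and 2-fold, and a minimum of 5 FPKM or none. Scaling to the total over completed estimates, and the likeness without liver, were added after seeing the data. The computations were tested on simulated data. Python 3.11.15, numpy 2.4.6, pandas 2.3.3 and matplotlib 3.10.9 were used. Gene positions came from GENCODE vM21 (GRCm38, the mm10 assembly) and promoter sequences from RefSeq (GRCm38.p6).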

Additional observations from a re-analysis of the deposited data

How the results depend on the processing

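No paired analysis was possible because the table holds 1 pooled value per genotype and tissue, and for the same reason no replicate could be left out. The 7 genes stayed higher in liver and lower in MEFs under each pseudocount, scaling and centring tried. The number of them past the limit in liver, 2 at 1.5-fold, was 6 at the lower limit tried (0.32 on the log2 scale) and 1 at 2-fold, and in MEFs 2 were past the lower limit downward. The share of all genes past these other limits is not given here, and the shares at 1.5-fold do not apply to them. Scaling each genotype to its total moved the median of all liver genes by 0.16, brought the median of the 7 genes in liver from 0.39 to 0.55 and Fdps past the limit (0.64), and left 0 of 7 genes higher in heart. Part of these shifts in liver and heart comes from mitochondrial genes listed at 0 in 1 genotype, with no completed estimate. Examples are mt-Atp8 in liver at 34631 and 0 FPKM and mt-Nd1 in heart at 0 and 10124 FPKM. Over completed estimates alone the totals moved the liver values by 0.06 and the heart values by -0.02, against -0.08 with all genes. In testes 2 of 7 genes were higher, instead of 0, under either scaling and under centring, and in eyes 1 of 7 under centring. Of the 13 other enzymes, 3, 2 and 1 were past 1.5-fold in liver under scaling to the total, scaling to completed estimates and centring, against 0. The share of all genes past 1.5-fold under scaling or centring is not given here either. Of 168 values of counts and medians under the alternatives, 159 kept within the limits set for them. The share of all genes past the limit upward in liver was 2.50% as reported, 1.59% with a pseudocount of 1 and 4.31% with no filter. Over both directions and all tissues these shares ran from 0.345% to 3.91%, from 1.44% to 4.42% and, with a minimum of 5 FPKM, from 0.252% to 4.26%. Depth is unknown, so small differences cannot be set against counting error.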
